A study of Mus musculus with 10 samples.

Results

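Transcripts of skeletal muscle were measured in tissue excised from the mouse anterior fontanelle (AF), the fibrous gap between the frontal bones. The 10 genes described here, Acta1, Ckm, Myh3, Myh8, Myog, Mylpf, Tnnt3, Tnnc2, Des and Ttn, were chosen by name from the 23080 genes of the deposited table, and all 10 were present. The excised piece, from E18.5 embryos, held bone and the connective tissue of the suture, skin and brain having been removed, and RNA of all its cells was sequenced together. There were 5 libraries labelled WT, called controls in the study, and 5 labelled Wnt1-Cre; Fgfr2fl/fl, in which Cre recombinase driven in neural crest cells acts on a floxed Fgfr2 allele.

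The study describes the embryos as littermate pairs of control and mutant, but which libraries form a pair is not known here. The labels number the libraries of each genotype and name no embryo or litter, so the p-values below measure the spread between these libraries. Fgfr2, the targeted gene, was at 200 ± 21.7 CPM (counts per 1000000 counts; SD, n = 5) in libraries labelled control and 318 ± 32.8 CPM (SD, n = 5) in libraries labelled mutant, a log2 fold change of 0.67 (SE 0.0902, edgeR's quasi-likelihood test, adjusted p = 0.0487). Its log2 fold change was 0.63 to 0.77 under the 20 alternatives fitted, but its adjusted p ran from 1.73e-09 (DESeq2) to 0.427 and was under 0.05 in only 8 of them. It was 0.152 with library size alone, 0.427 with the replicate number as a block and 0.0761 with the muscle score (the members' mean log2 level) as a covariate. A count per gene does not separate recombined from intact transcripts, so the higher Fgfr2 level in mutant-labelled libraries does not test their label. Libraries are called control-labelled and mutant-labelled throughout. The labels were not tested. In the same libraries 6 of 8 osteoblast genes were lower in the mutant-labelled group at an unadjusted p under 0.05 by edgeR. At that threshold 3 of 7 tendon genes were higher. Of all genes tested, 7.49% passed it in either direction. Of the genes of bone and tendon, 1 of 8 osteoblast genes and 1 of 7 tendon genes had groups that did not overlap, beside 1.48% of all genes tested, and 0 passed the adjusted threshold. They were Alpl, an enzyme of bone mineralisation, lower in mutant-labelled libraries with a log2 fold change of -0.38 (SE 0.0946, edgeR adjusted p = 0.336), and Tnmd, a tendon gene, higher at 0.58 (SE 0.141, edgeR adjusted p = 0.326). The other tendon genes ran from -0.56 (Thbs4) to 0.35 (Scx). The libraries held 20774667 to 28515434 estimated counts. Of all counts, a single ribosomal RNA gene took 18.6% to 33.5%.

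Skeletal muscle fibres contract by the sliding of myosin thick filaments along actin thin filaments. The troponin complex gates this sliding by calcium, titin spans the sarcomere as a spring, and desmin ties neighbouring sarcomeres together. Muscle fibres form by fusion of myoblasts, which arise from PAX7+ and PAX3+ progenitors and switch on MYOD1 and then myogenin. Fetal fibres use an embryonic and then a perinatal myosin heavy chain, which adult fast or slow chains replace after birth. The AF itself holds bone-forming cells, fibrous mesenchyme and vessels, and the muscles of the head are mesodermal and are not a target tissue of Wnt1-Cre.

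Muscle transcripts formed a small and very uneven part of the RNA. Counts of the 10 genes together made up between 0.00303% and 0.0961% of a library. Their summed level in control-labelled replicates 1 to 5 was 31, 940, 197, 96.7 and 30.9 CPM. In mutant-labelled replicates 1 to 5 it was 981, 99.4, 33.3, 33.1 and 180 CPM. The lowest and highest library of each genotype thus spanned nearly the same interval, and in each genotype 1 library stood far above the others: control-labelled replicate 2 and mutant-labelled replicate 1. In bulk tissue, fewer muscle cells and less muscle RNA per cell cannot be told apart.

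The regions upstream of these genes are shown as stretches to which muscle transcription factors could bind. Whether they bear on the differences between libraries was not tested. Promoter sequences of 250 bases before the RefSeq start site (GRCm38.p6) were found for 9 of the 10 genes, and there was no entry for Tnnt3. The motifs searched on both strands were the E-box CAGCTG, 1 of the variants of CANNTG that MYOD1 and myogenin bind, the MCAT element CATTCC, the MEF2 site and the CArG box of serum response factor. In the sequences below, capitals mark CAGCTG, MEF2 and CArG matches.

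Acta1 (chr8:123894776-123895025, minus strand): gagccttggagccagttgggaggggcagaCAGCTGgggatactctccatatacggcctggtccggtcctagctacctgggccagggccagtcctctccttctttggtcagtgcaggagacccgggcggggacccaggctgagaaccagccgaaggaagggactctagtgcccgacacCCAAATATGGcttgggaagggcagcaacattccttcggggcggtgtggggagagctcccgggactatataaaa

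Myh3 (chr11:67078050-67078299, plus strand): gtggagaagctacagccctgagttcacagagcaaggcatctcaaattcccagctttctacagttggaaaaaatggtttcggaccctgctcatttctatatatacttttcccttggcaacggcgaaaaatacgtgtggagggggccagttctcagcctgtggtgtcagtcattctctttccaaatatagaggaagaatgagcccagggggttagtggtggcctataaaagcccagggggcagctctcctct

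Myh8 (chr11:67276874-67277123, plus strand): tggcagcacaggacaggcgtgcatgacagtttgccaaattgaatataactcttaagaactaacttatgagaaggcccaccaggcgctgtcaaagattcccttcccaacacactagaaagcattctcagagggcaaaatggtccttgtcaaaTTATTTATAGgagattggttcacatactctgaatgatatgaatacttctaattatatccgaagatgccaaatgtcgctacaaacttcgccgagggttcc

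Ttn (chr2:76982548-76982797, minus strand): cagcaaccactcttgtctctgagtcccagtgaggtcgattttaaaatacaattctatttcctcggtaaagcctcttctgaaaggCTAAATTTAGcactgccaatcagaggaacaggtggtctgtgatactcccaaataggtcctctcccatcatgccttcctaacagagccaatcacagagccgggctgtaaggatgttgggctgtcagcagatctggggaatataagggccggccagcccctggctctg

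The general E-box CANNTG was in 9 of the 9 sequences, but also in 66.2% of 32817 promoters of the same length, and each CAGCTG is counted in it too. CAGCTG was in 4 of the 9 (Acta1, Ckm, Des and Mylpf) against 4268 of the 32817 promoters, and other E-box variants were counted only within CANNTG. A MEF2 match was in 2 of the 9, 99 bases before the start of Myh8 and 166 bases before that of Ttn, against 2.92% of all. Acta1 alone held a CArG box, 73 bases before its start, and CATTCC, 46 bases before its start, which were in 1.47% and 12.6% of all promoters. Myh3 held none of the capital-marked motifs in this window and 1 CANNTG, 191 bases before its start. These are matches of letters, not measured binding sites.

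The thin filament was represented by skeletal alpha-actin (Acta1), fast troponin T (Tnnt3) and fast troponin C (Tnnc2). Acta1 (chr8:123891769-123894751) was measured at 8.04, 235, 52.5, 24.7 and 6.04 CPM in control-labelled replicates 1 to 5 and at 209, 21.3, 5.56, 4.34 and 34.7 CPM in mutant-labelled replicates 1 to 5. The lower of the 2 high libraries, mutant-labelled replicate 1, was 3.98 times the next library, and the other 8 libraries of both genotypes were intermixed. The log2 fold change, mutant-labelled minus control-labelled, was -0.25 (SE 1.13, 95% interval -2.72 to 2.21, edgeR adjusted p = 0.973). Tnnt3 (chr7:142498836-142516009) was measured at 2.45, 35.4, 10.6, 5.6 and 3.47 CPM in the control-labelled and 31.7, 5.29, 2.1, 2.38 and 6.27 CPM in the mutant-labelled replicates. Its 2 highest libraries were the same as those of Acta1, and its log2 fold change was -0.29 (SE 0.848, edgeR adjusted p = 0.96). Tnnc2 (chr2:164777161-164779967) was measured at 0.778, 15, 4.59, 2.86 and 0.845 CPM in the control-labelled and 14.6, 2.07, 0.685, 1.53 and 3.27 CPM in the mutant-labelled replicates. The groups overlapped again, with a log2 fold change of -0.14 (SE 0.892, edgeR adjusted p = 0.981). Of the 50-base windows of the Tnnc2 transcript, 55.0% were also in Ube2c, a cell-division gene on the opposite strand that was itself at 11.9 to 14.7 CPM, and since a strand setting is not given in the sources used here, reads of the shared stretch cannot be told apart.

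The thick filament was represented by the embryonic myosin heavy chain (Myh3), the perinatal myosin heavy chain (Myh8) and the fast regulatory light chain (Mylpf). Myh3 (chr11:67078300-67102291) was measured at 1.3, 156, 17.4, 7.89 and 2.24 CPM in control-labelled replicates 1 to 5 and at 130, 11.4, 2.48, 4.3 and 35.3 CPM in mutant-labelled replicates 1 to 5. Mutant-labelled replicate 5 was the third highest library for Myh3, whereas control-labelled replicate 3 was the third highest for Acta1. Myh8 (chr11:67277124-67308634) was measured at 1.85, 189, 31.5, 15.3 and 1.9 CPM in the control-labelled and 235, 14.3, 3.25, 4.81 and 28 CPM in the mutant-labelled replicates. It had the widest range of the members, 127-fold between its highest and lowest library, followed by Myh3 at 120-fold. The log2 fold change by genotype was -0.03 (SE 1.24, 95% interval -2.73 to 2.67, edgeR adjusted p = 0.998) for Myh3 and 0.24 (SE 1.29, 95% interval -2.58 to 3.06, edgeR adjusted p = 0.978) for Myh8. Mylpf (chr7:127208890-127214298) was measured at 3.08, 45.3, 13.9, 7.72 and 2.92 CPM in the control-labelled and 47.5, 7.35, 2.4, 2.04 and 8.74 CPM in the mutant-labelled replicates. Its groups overlapped, with a log2 fold change of -0.12 (SE 0.919, edgeR adjusted p = 0.985).

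Titin (Ttn) and desmin (Des) represented the cytoskeleton of the sarcomere. Ttn (chr2:76703980-76982547) was measured at 6.15, 166, 39.1, 16.8 and 6.04 CPM in control-labelled replicates 1 to 5 and at 219, 24.8, 9.63, 6 and 45.6 CPM in mutant-labelled replicates 1 to 5. The 2 high libraries again stood apart, and the log2 fold change of 0.37 was the highest of the 9 tested members (SE 1.06, 95% interval -1.94 to 2.68, edgeR adjusted p = 0.958). Des (chr1:75360329-75368579) was measured at 5.08, 42.7, 12.6, 8.71 and 5.58 CPM in the control-labelled and 36.4, 7.91, 5.35, 6.34 and 12.1 CPM in the mutant-labelled replicates. Desmin is also made by smooth muscle and pericytes, and Des had the narrowest range of the members, 8.42-fold. The log2 fold change was -0.15 (SE 0.667, 95% interval -1.6 to 1.31, edgeR adjusted p = 0.974).

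Ckm encodes the creatine kinase of muscle, which buffers ATP during contraction. Ckm (chr7:19404776-19422841) was measured at 2.19, 52.5, 14.3, 6.62 and 1.73 CPM in control-labelled replicates 1 to 5 and at 55.5, 3.93, 1.63, 1.06 and 4.99 CPM in mutant-labelled replicates 1 to 5. The groups overlapped, and the log2 fold change was -0.22 (SE 1.11, edgeR adjusted p = 0.976). Myog encodes myogenin, the transcription factor of differentiating myoblasts and the only regulator among the members. Its counts were 3, 108, 18, 9 and 2 in the control-labelled and 71, 24, 6, 6 and 10 in the mutant-labelled replicates, or 0.0845 to 3.7 CPM. Myog (chr1:134289989-134292548) did not pass the filter on low counts, so no value for it enters the counts of tested members. Fitted over all 23080 genes without that filter, its log2 fold change was 0.01 (SE 0.952, edgeR adjusted p = 0.998).

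**Figure D1:**
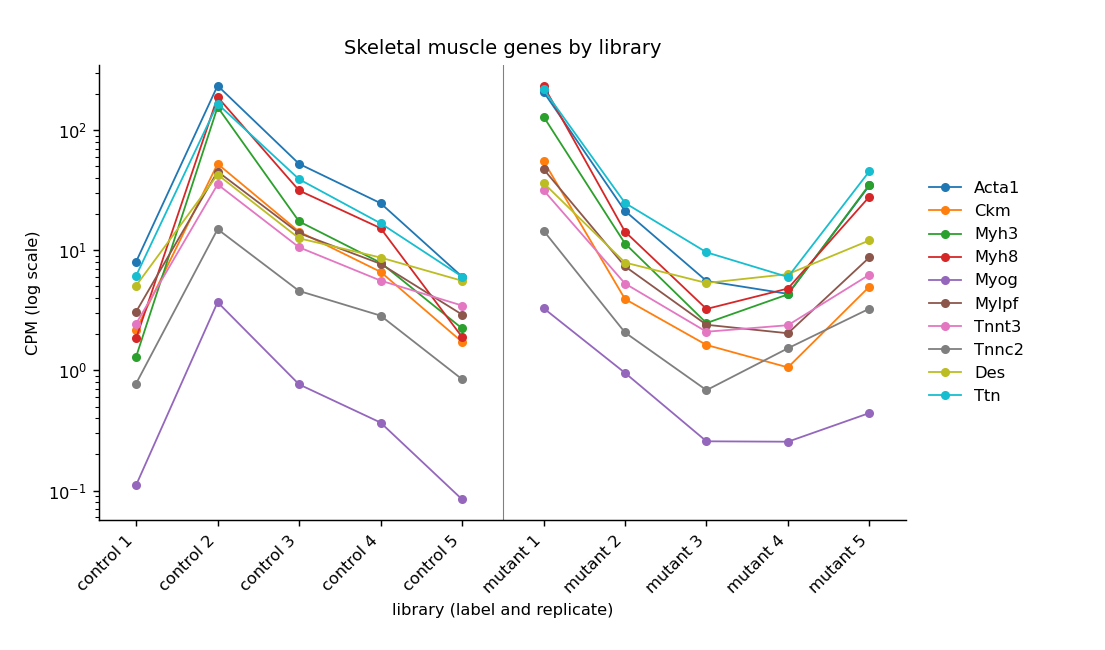
CPM of each of the 10 skeletal muscle genes (coloured points joined by lines within a label only to guide the eye, log scale) in the 5 control-labelled and 5 mutant-labelled libraries. Control-labelled replicate 2 and mutant-labelled replicate 1 were the 2 highest libraries for every gene, and Myog, at 0.0845 to 3.7 CPM, was the lowest gene in every library.

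Of the 9 members tested, 0 had an adjusted p under 0.05 between genotypes in edgeR's quasi-likelihood test, beside 0.0184% of the 16267 genes tested. At an unadjusted p under 0.05 the count was 0 of 9, beside 7.49% of all genes, and by DESeq2's adjusted p it was 0 of the 9 members that had one, Myh8 having none. In 0 of the 10 members did the groups fail to overlap, beside 1.48% of all genes tested (0.781% with the mutant-labelled libraries higher). The median log2 fold change was -0.14 over the 9 members and 0.001 over all genes. With standard errors of 0.667 to 1.29, the 95% intervals still held differences of several-fold in either direction. These libraries thus did not settle whether the genotypes differed by that much.

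The direction of the genotype contrast depended on which libraries were included, and most on the 2 high ones. Without control-labelled replicate 2, 9 of the 9 tested members were higher in mutant-labelled libraries, by 0.77 (Des) to 2.35 (Myh3) on the log2 scale. Without mutant-labelled replicate 1, 9 of the 9 were lower, with log2 fold changes of -0.91 (Des) to -2.41 (Ckm). Without both, the values ranged from -1.08 (Ckm, SE 0.69) to 0.9 (Myh3, SE 0.903). Leaving out 1 of the other 8 libraries also turned the sign in 20 cases, all to values between -0.07 and 0.28 and so close to 0. Without mutant-labelled replicate 3, and likewise without replicate 4, Acta1, Ckm, Myh3, Mylpf, Tnnc2 and Des became positive, and without mutant-labelled replicate 2 Ckm, Myh3, Mylpf, Tnnc2 and Des were at 0 or above. In none of these fits did a member pass an adjusted p of 0.05, and the lowest value over all alternatives tried was 0.612.

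**Figure D2:**
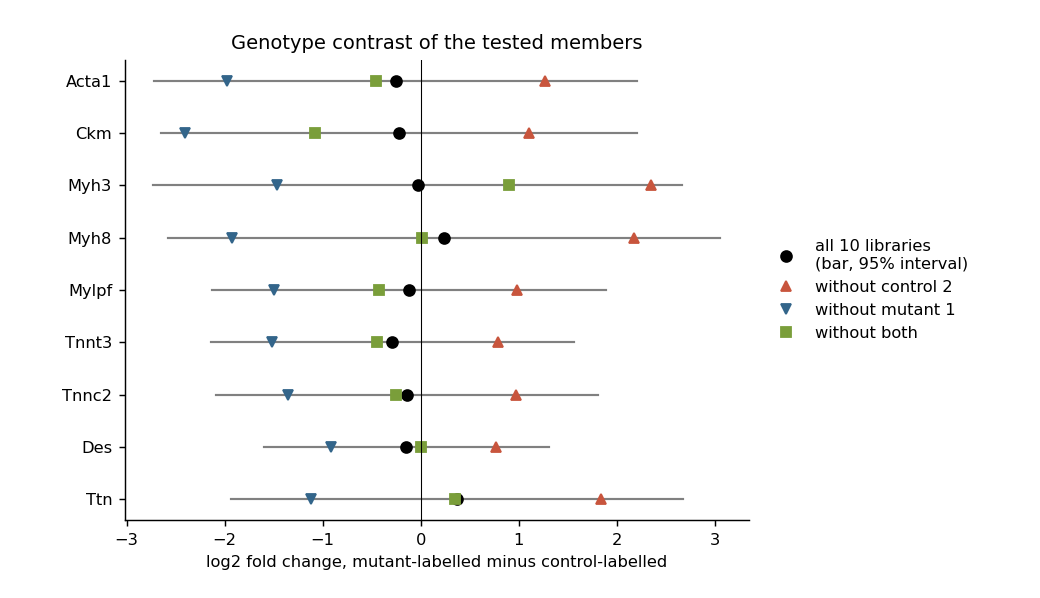
Log2 fold change, mutant-labelled minus control-labelled, of the 9 tested members with all 10 libraries (circles, with 95% intervals as bars), without control-labelled replicate 2 (upward triangles), without mutant-labelled replicate 1 (downward triangles) and without both (squares). The upward triangles lie at 0.77 to 2.35 and the downward triangles at -0.91 to -2.41, on opposite sides of 0 for each gene.

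To rank the libraries by their level of muscle transcripts, a muscle score was taken as the mean over the 10 members of log2 CPM centred on each gene's mean. It was -1.84, 2.92, 0.82, -0.14 and -1.8 in control-labelled replicates 1 to 5 and 2.9, -0.08, -1.66, -1.55 and 0.44 in mutant-labelled replicates 1 to 5. The highest and lowest library differed by 4.76 on the log2 scale, or 27-fold, and a gap of 2.08 lay between the 2 high libraries and the next. The mean score was -0.01 ± 1.99 (SD, n = 5) in control-labelled and 0.01 ± 1.86 (SD, n = 5) in mutant-labelled libraries. The libraries formed a similar ladder in both genotypes, with 1 very high, 1 moderately raised, 1 in the middle and 2 low.

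The members rose and fell together from library to library. The log2 CPM of each member had a Pearson correlation of 0.942 (Myog) to 0.988 (Myh8) with the mean of the other 9 over the 10 libraries, which share depth and normalisation factor across genes. Over the 8 libraries without the 2 high ones it was 0.813 (Myog) to 0.973 (Myh8). Among the 45 pairs of members the correlation was 0.898 to 0.997 over 10 libraries and 0.669 to 0.995 over 8. The SD of log2 CPM over the libraries had a median of 1.92 over the 9 tested members and 0.175 over all genes tested. Myh8 ranked 13 and Des 398 among the 16267 genes in that spread.

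Compared per kilobase of the longest transcript, Acta1 was highest, with a median of 15.9 CPM per kb over the libraries and a maximum of 163. Mylpf had a median of 9.84 CPM per kb and Tnnt3 5.05. The next members, Tnnc2 at 3.52, Des at 2.74 and Myh8 at 2.41 CPM per kb, had library ranges that covered each other's medians. Ckm was at 1.63 and Myh3 at 1.6, the latter with a range of 0.216 to 25.9 CPM per kb. Myog at 0.271 and Ttn at 0.195 CPM per kb were lowest, and neighbours in this order overlapped in their library ranges, Ttn being spread over a transcript of 107 kb. The order by medians was not that of the libraries rich in muscle transcripts. In control-labelled replicate 2, Myh8 (30.7 CPM per kb), Myh3 (25.9) and Ckm (19.1) were above Des (14.1), and in mutant-labelled replicate 1 Myh8 (38.2) was above Tnnt3 (29.4).

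By Pearson correlation with the muscle score over the 10 libraries, the 10 highest non-members included Actc1 (0.993), Actn2 (0.992), Tnni1 (0.987), Tceal7 (0.985), Neb (0.985), Cacng1 (0.984), Itgb1bp2 (0.983), Myl1 (0.982) and Mybpc1 (0.981). Actc1 encodes cardiac alpha-actin, which fetal skeletal muscle also makes, Actn2 the actinin of the Z-disc, Neb nebulin and Tnni1 slow troponin I. Of these 10, 8 were in the muscle gene lists chosen for this description, and Tceal7 and Itgb1bp2 were not. Without the 2 high libraries the correlation of Tceal7 was 0.987 and that of Actc1 was 0.985. A correlation of at least 0.9 was found for 53 of 16258 non-members, or 0.326%, and for 28 of the 57 tested non-members of the muscle lists. At the other end, Gm28229 (-0.966), Ugt1a8 (-0.935), Cebpz (-0.93), Sec62 (-0.921) and Pcmtd1 (-0.911) had the lowest values. Gm28229 was at 1.1 CPM in control-labelled replicate 2, 1.11 CPM in mutant-labelled replicate 1 and 1.53 to 2.04 CPM in the other 8 libraries.

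The other genes of the muscle apparatus were described by 8 lists holding 99 genes with the members included, and 0 of their tested genes had an adjusted p under 0.05 between genotypes by edgeR. At an unadjusted p under 0.05, 1 of 5 tested sarcomeric myosin heavy chains was higher in mutant-labelled libraries, while 1 of 15 genes of excitation-contraction coupling and 1 of 6 of muscle energy metabolism were lower, beside 7.49% of all genes tested in either direction. Myosin heavy chains summed to between 6.89 and 372 CPM, a 53.9-fold range. Light chains and other thick filament genes summed to 8.73 to 162 CPM, and Z-disc and M-band genes spanned 11.1-fold. Thin filament genes spanned 7.85-fold, a list that includes Tpm2, a tropomyosin that many cells make, at 48 to 111 CPM. Genes of excitation-contraction coupling spanned 2.72-fold, and 4.7-fold without Hrc, a calcium-binding protein of the sarcoplasmic reticulum that was at 25.4 to 48.4 CPM and was set apart after its values were seen. The neuromuscular junction genes spanned 3.93-fold. The list of myogenic regulators and fusion genes spanned 1.31-fold, from 173 to 227 CPM, and most of its sum was Mef2c (129 to 186 CPM), which is not restricted to muscle.

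Lists for the other tissues that the excised region could hold spanned 1.26-fold to 7.13-fold between their lowest and highest library, against 31.8-fold for the members. Smooth muscle and pericyte genes summed to 803 to 857 CPM in control-labelled and 742 to 944 CPM in mutant-labelled libraries. Heart muscle genes summed to only 2.25 to 3.78 CPM, with 3 of the 6 genes (Myl7, Nppa and Nppb) not listed in the table. Tendon genes summed to 309 to 368 CPM in control-labelled and 352 to 484 CPM in mutant-labelled libraries. Epidermal genes stayed between 3.21 and 7.11 CPM, and Schwann cell genes between 111 and 171 CPM. Osteoblast genes, which mark the tissue itself, summed to 65900 to 77400 CPM in control-labelled and 53800 to 78200 CPM in mutant-labelled libraries, their 3 lowest libraries being mutant-labelled replicates 2 and 1 and control-labelled replicate 2. Most of that sum was Col1a1 (66200 ± 4400 and 64100 ± 10100 CPM, SD, n = 5 each), while the median log2 fold change of the 8 osteoblast genes was -0.38, with 0 of 8 at an adjusted p under 0.05 by edgeR. Neuronal genes varied from 54.5 to 388 CPM and were highest in mutant-labelled replicates 2 and 1 (388 and 200 CPM). The part of these tissues in the members' values was not tested.

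**Figure D3:**
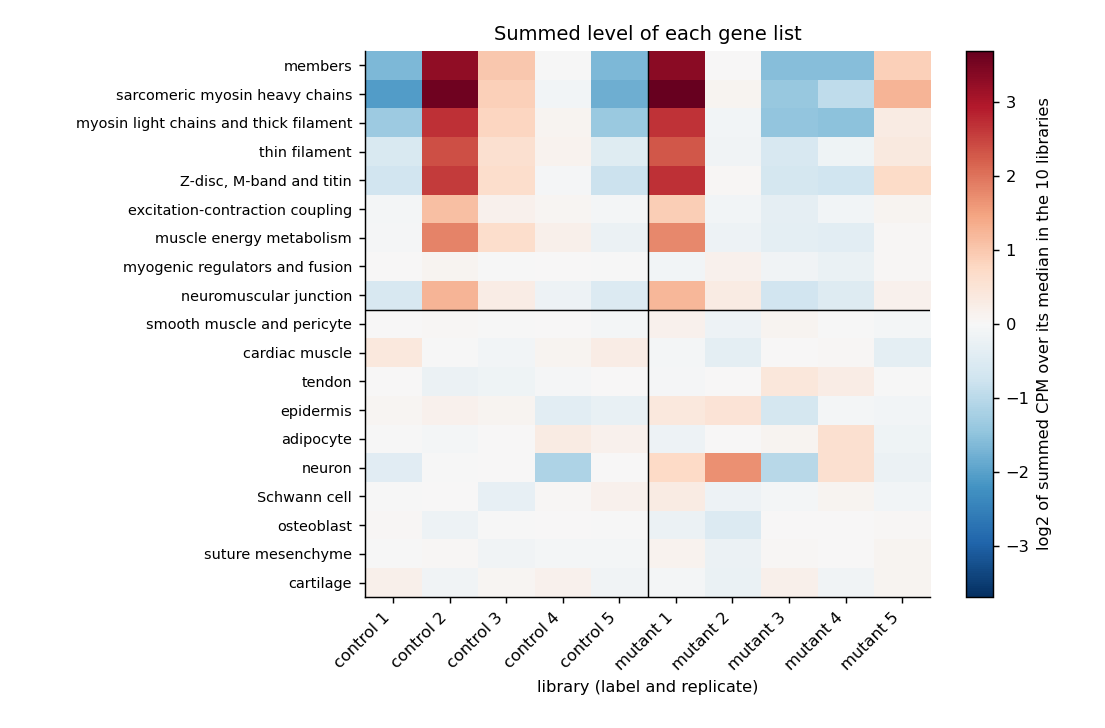
Summed CPM of each gene list in each of the 10 libraries, as log2 of its ratio to the list's median over the libraries (red above, blue below). The sarcomere lists were highest in control-labelled replicate 2 and mutant-labelled replicate 1, whereas smooth muscle and pericyte genes stayed within 742 to 944 CPM.

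The fetal state of the muscle was read from its myosin heavy chains. The ratio of Myh8 to Myh3 counts was 1.43, 1.22, 1.81, 1.94 and 0.849 in control-labelled replicates 1 to 5 and 1.81, 1.25, 1.31, 1.12 and 0.794 in mutant-labelled replicates 1 to 5. The perinatal chain had more counts than the embryonic one in 8 of the 10 libraries, the exceptions being replicate 5 of both labels, but the 95% counting interval of the ratio included 1 in 4 libraries (control-labelled replicates 1 and 5 and mutant-labelled replicates 3 and 4). The mean log2 ratio was 0.47 ± 0.48 (SD, n = 5) in control-labelled and 0.28 ± 0.429 (SD, n = 5) in mutant-labelled libraries, a difference of -0.19 (2-sided exact permutation test, p = 0.476, with 0.00794 the smallest p that the groupings can give). Single libraries differed by more than counting error. The 95% counting interval of the ratio was 1.17 to 1.26 in control-labelled replicate 2, 1.73 to 1.9 in mutant-labelled replicate 1 and 0.714 to 0.882 in mutant-labelled replicate 5. These intervals cover counting error only. The ratios were not corrected for length. The longest transcript had 6149 bases for Myh8 and 6031 for Myh3, and all annotated exons together 11772 and 6057. Whether the perinatal chain was the more abundant RNA was not tested.

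**Figure D4:**
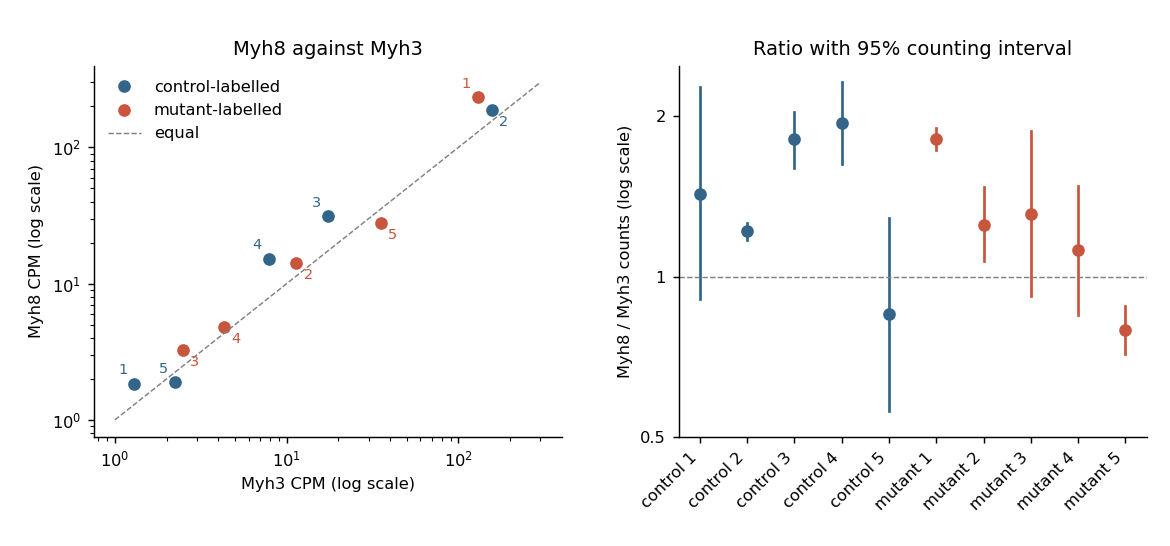
Left, Myh8 against Myh3 CPM (log scales) in each library, labelled by replicate number, with a dashed line of equal CPM. Right, the ratio of Myh8 to Myh3 counts with its 95% counting interval (log scale). Ratios ran from 0.794 to 1.94, and replicate 5 of both labels lay below 1.

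Both myosin heavy chain genes lie in a cluster on chromosome 11, and their reads can be partly shared with other members of the cluster. Over the coding sequence Myh8 was 80.7% identical to Myh3, 89.3% to Myh1 and 89.2% to Myh2. Of the 50-base windows of its transcript, the length of the reads, 21.4% were found in other genes, 11.8% in Myh2 and 1.54% in Myh3. For Myh3 the share was 4.81%. The longest stretch common to Myh8 and Myh2 is shown, since reads from it cannot be assigned to either gene, with the aligned stretch of Myh3, in which capitals mark the 8 bases that differ. The Myh8 stretch lies in 2 coding exons between chr11:67297215-67297480 on the plus strand, at coding bases 2812 to 2966, and that of Myh3 at its coding bases 2806 to 2960 (GRCm38).

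Myh8 and Myh2: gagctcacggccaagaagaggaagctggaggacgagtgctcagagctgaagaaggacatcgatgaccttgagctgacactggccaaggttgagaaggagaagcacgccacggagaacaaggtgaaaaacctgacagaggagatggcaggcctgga

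Myh3: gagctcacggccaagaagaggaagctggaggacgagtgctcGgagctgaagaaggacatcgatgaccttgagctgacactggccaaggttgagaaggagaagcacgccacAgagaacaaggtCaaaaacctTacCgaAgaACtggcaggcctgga

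Adult myosin heavy chains were far below the fetal ones wherever muscle transcripts were abundant. Myh3 and Myh8 together made up 99.3% of the summed CPM of Myh1, Myh2, Myh3, Myh7 and Myh8 in control-labelled replicate 2 and 98.7% in mutant-labelled replicate 1. In the other libraries the share was 65.4% to 95.4%, lowest in mutant-labelled replicate 3. Myh7, the slow chain, was at 0.0741 to 1.86 CPM, with its highest levels in the same 2 high libraries (1.3 and 1.86 CPM), and its groups overlapped. Myh4 was not listed in the table.

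Some genes of the muscle lists did not follow the members. Myh6, for example, was highest in control-labelled replicate 1 (2.59 CPM) and Hrc in control-labelled replicate 5 (48.4 CPM). Myh1, an adult fast chain, did not follow the members either. It was measured at 0.445, 0.755, 1.19, 0.94 and 0.549 CPM in control-labelled replicates 1 to 5 and at 2.23, 1.39, 1.84, 1.75 and 1.59 CPM in mutant-labelled replicates 1 to 5, from 12 to 48 counts a library. Each mutant-labelled library was above each control-labelled one, which held in this direction for 0.781% of all genes tested. The log2 fold change was 1.18 (SE 0.272, 95% interval 0.58 to 1.77), with an adjusted p of 0.307 in edgeR's quasi-likelihood test and 0.02 in DESeq2's Wald test. By the main test Myh1 thus did not pass, although its direction was the same in every alternative fitted for it. Myh2, with 4 to 8 counts in control-labelled and 8 to 24 in mutant-labelled libraries, was too low to be tested by the filter. The correlation of Myh1 with the muscle score was 0.284 over the 10 libraries, and 32.1% of its 50-base windows were in other genes, 19.7% in Myh2. Myh1 was singled out after its values were seen.

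Other pairs of fetal and adult forms were set side by side in the same way. Counts of Actc1 per count of Acta1 were 0.18 to 0.328 over the 10 libraries, with the lowest value from 39 and 217 counts. Tnnt2, the cardiac troponin T that fetal skeletal muscle also uses, stood at 0.08 to 0.218 per count of Tnnt3. Myl4, an embryonic light chain, stood at 0.166 to 0.942 per count of Myl1, and the values above 0.5 came from control-labelled replicate 5 and mutant-labelled replicates 3, 4 and 5. The fetal acetylcholine receptor subunit gene Chrng had 23 counts in control-labelled replicate 2 and 15 in mutant-labelled replicate 1, against 2 and 3 counts of its adult counterpart Chrne. In the other 8 libraries both were at 0 to 4 counts, with Chrne above Chrng in control-labelled replicate 1 (2 against 0) and mutant-labelled replicate 2 (4 against 1).

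The 2 libraries richest in muscle transcripts were close in the members and differed in several myogenic regulator and fusion genes. Each is 1 library, so the ratios below compare libraries, not genotypes, with counting intervals alone. In control-labelled replicate 2 relative to mutant-labelled replicate 1, CPM ratios of the members ran from 0.761 (Ttn, 95% interval 0.731 to 0.793) to 1.2 (Myh3, 1.15 to 1.26). Myog was in this range at 1.12 (0.825 to 1.54). Pax7, the marker of muscle progenitors and satellite cells, had 112 counts against 18, a ratio of 4.6 (2.78 to 8.04). Pax3 had a ratio of 3.03 (1.49 to 6.78), Myod1 of 5.36 (1.88 to 21) and the myoblast fusion gene Mymk of 2.05 (1.31 to 3.31). Mymx, which encodes the other fusion protein, had 16 counts against 2, a ratio of 5.91 (1.39 to 53). Myf5 at 1.18 (0.341 to 4.59) and Myf6 at 0.826 (0.406 to 1.69) had intervals that included 1.

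The ratio of Pax7 to sarcomere transcripts varied between libraries of 1 label too. Mutant-labelled replicate 5 had 28 Pax7 counts (1.24 CPM) beside 18 (0.836 CPM) in mutant-labelled replicate 1, while its Acta1 level was 34.7 CPM against 209. Per 1000 counts of Acta1 there were 16.4 Pax7 counts in control-labelled replicate 2 (95% counting interval 13.5 to 19.7), 4 in mutant-labelled replicate 1 (2.37 to 6.32) and 35.6 in mutant-labelled replicate 5 (23.5 to 51.9). The highest value was 68.6 in mutant-labelled replicate 4 (26.9 to 147), from 7 Pax7 counts. In the other control-labelled libraries it was 0 to 9.22, and in mutant-labelled replicates 2 and 3 it was 9.33 and 15.4, each from 6 Pax7 counts or fewer. Myog per 1000 counts of Acta1 was 13.8 to 15.8 in the 5 control-labelled libraries and 15.8 and 12.7 in mutant-labelled replicates 1 and 5. It was 44.8 (28.4 to 67.3), 46.2 (16.6 to 103) and 58.8 (21.1 to 133) in mutant-labelled replicates 2, 3 and 4, the last 2 from 6 Myog counts each.

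**Figure D5:**
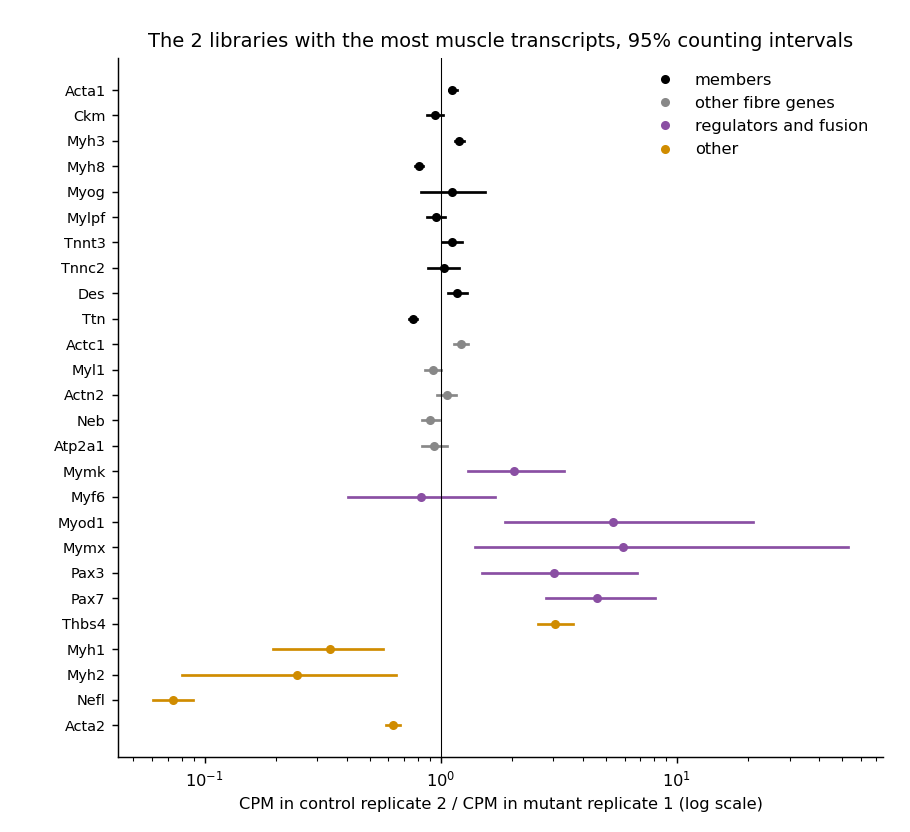
Ratio of CPM in control-labelled replicate 2 to CPM in mutant-labelled replicate 1 for the members (black), other fibre genes (grey), regulators and fusion genes (purple) and other genes (orange), with 95% counting intervals (log scale). The members lie between 0.761 and 1.2, Pax7 at 4.6 and Nefl at 0.0737.

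The same 2 libraries differed in genes of other tissues. Thbs4, a matrix protein of tendon and of its junction with muscle, was at 25 CPM in control-labelled replicate 2 and 8.17 CPM in mutant-labelled replicate 1, a ratio of 3.06 (2.59 to 3.63). The neurofilament gene Nefl was at 4.05 against 54.9 CPM, a ratio of 0.0737 (0.0605 to 0.0892). Acta2, the smooth muscle actin, was at 58.8 against 93.6 CPM, a ratio of 0.628 (0.588 to 0.67). The part of nerve, vessel or tendon carried along with the muscle in these values was not tested.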

How the data were processed

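Per the labels, libraries were made with a stranded kit, read from a single end over 50 bases and processed in Partek against mm10. The authors deposited 1 table of estimated counts per gene, not scaled between libraries, of which 66.4% were whole numbers; no gene summed to under 10 over the libraries. Aligner, counter and strand setting are not given in the sources used here. Estimated counts were rounded, filtered by expression (16267 of 23080 genes tested), normalised by TMM and compared between 5 control-labelled and 5 mutant-labelled libraries by edgeR's quasi-likelihood test (edgeR 4.0.16, R 4.3.3), with Benjamini-Hochberg adjustment over all genes tested and a threshold of 0.05. CPM values use TMM, and log2 CPM a prior count of 0.5. The score and the ratio of myosins used all 10 libraries, the latter with a 2-sided exact permutation test. Intervals of ratios of counts are exact binomial and cover counting error only.

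The genes, the lists and the tests were chosen with earlier results of these data known. Named genes are the members, Fgfr2, pairs of fetal and adult forms, list genes that stood at an extreme, and the 10 most and 5 least correlated non-members; Myh1, Pax7, Thbs4, Nefl and other genes described in the 2 highest libraries were named after their values were seen. Coordinates are those of GENCODE M21 (GRCm38), which had the same start and end for 22296 of 22533 symbols matched. Alternatives were DESeq2 1.42.0 (size factors, Wald test), limma 3.58.1 voom with quality weights, library size alone, no ribosomal RNA genes, other filters, a muscle score covariate, a replicate block and leaving out each library. Some genes that these rules name are not reported here.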

Additional observations from a re-analysis of the deposited data

Results flagged for a closer look

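Within each label, 88 series of 5 values (24 genes, the muscle score, the myosin ratio and the summed levels of 18 lists, in each genotype) were examined for a single library lying apart, by the gap to its nearest neighbour as a share of the group's range, with a critical value of 0.71. Chance marks about 1 in 20 such series where values are not skewed, and 45 were marked on the CPM scale. Since the members move together, these are not separate events. On the log2 scale, tried after the data were seen, 5 of the 88 were marked and 0 of the 20 series of the members, whose gaps to the highest library were 0.329 to 0.611 of the range. The muscle score, itself on the log2 scale, was not marked in either label (0.442 and 0.54). The 5 were Chrng in mutant-labelled libraries, Thbs4, excitation-contraction coupling and the osteoblast sum in control-labelled ones, and energy metabolism in mutant-labelled ones.

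On the CPM scale, control-labelled replicate 2 lay apart as the highest control-labelled library for 10 of the 10 members, with a gap of 0.797 of the range for Acta1, 0.753 for Ckm, 0.895 for Myh3, 0.842 for Myh8, 0.812 for Myog, 0.74 for Mylpf, 0.752 for Tnnt3, 0.732 for Tnnc2, 0.8 for Des and 0.794 for Ttn. Mutant-labelled replicate 1 lay apart as the highest mutant-labelled library for the same members, with 0.852 for Acta1, 0.928 for Ckm, 0.741 for Myh3, 0.893 for Myh8, 0.77 for Myog, 0.853 for Mylpf, 0.859 for Tnnt3, 0.815 for Tnnc2, 0.781 for Des and 0.814 for Ttn.

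The summed levels of 6 muscle lists did the same. In control-labelled replicate 2 the gap was 0.865 for sarcomeric myosin heavy chains, 0.782 for light chains and thick filament, 0.815 for the thin filament, 0.817 for Z-disc, M-band and titin, 0.86 for excitation-contraction coupling and 0.737 for energy metabolism. In mutant-labelled replicate 1 it was 0.839, 0.849, 0.85, 0.826, 0.735 and 0.9 for these lists in the same order.

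Among other genes, Actc1 (0.831 and 0.852) and Chrng (0.892 and 0.926) were marked in control-labelled replicate 2 and mutant-labelled replicate 1. Marked in control-labelled replicate 2 alone were Tnnt2 (0.881), Myl4 (0.859), Pax3 (0.867), Pax7 (0.934), Mymk (0.818) and Thbs4 (0.942). Marked in mutant-labelled replicate 1 alone were Myl1 (0.873) and Myf6 (0.832). The summed osteoblast level was lowest in control-labelled replicate 2 among the control-labelled libraries (gap 0.771).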

How the results depend on the processing

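The 9 tested members gave 171 values under the alternatives, of which 136 kept their direction, 35 changed it and 0 passed the threshold. Leaving out 1 library, log2 fold changes ranged from -1.98 to 1.27 for Acta1, -2.41 to 1.11 for Ckm, -0.91 to 0.77 for Des, -1.47 to 2.35 for Myh3, -1.93 to 2.18 for Myh8, -1.5 to 0.98 for Mylpf, -1.35 to 0.97 for Tnnc2, -1.52 to 0.79 for Tnnt3 and -1.12 to 1.84 for Ttn, the lowest without mutant-labelled replicate 1 and the highest without control-labelled replicate 2. Direction also changed by limma voom with quality weights for Myh3 (0.83) and Des (0.04) and, in an alternative added after the data were seen, without both high libraries for Myh3 (0.9). The cause was not tested. The replicate block turned Myh3 (0.14), Myh8 (-0.36) and Ttn (-0.03) and left 1 gene called. Same-numbered libraries deviated from their group means with correlations of -0.21 to 0.14, so the numbers were not taken as pairs, which does not show that same-numbered libraries come from different litters. Under the block the myosin ratio differed by -0.19 (exact sign-flip test, p = 0.375).

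Of all genes, 3 were called by edgeR, 1 with library size alone, 1 with the muscle score as a covariate, 95 by DESeq2 (57 higher in mutant-labelled libraries), 1219 at an unadjusted p under 0.05, and 1 to 6 leaving out a library. The highest count came without mutant-labelled replicate 2. The range of the muscle score was 4.72 to 4.76 leaving out a library and 2.66 without both high libraries. The myosin ratio difference was -0.37 (without control-labelled replicate 5) to -0.04 (without mutant-labelled replicate 5). The adjusted p of Myh1 was 0.175 to 0.564 in edgeR and limma fits. Depth limits Myog, Myh1, Myh2 and Pax7, whose counts were few.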
